A study of Mus musculus with 3 samples.

Results

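Divergent promoter pairs are genes on opposite strands that are transcribed away from each other from neighbouring start sites. They were looked for in full-length transcript models of mouse CD4+ T cells. The 5′ end of a gene was taken as the most upstream start of its multi-exon models over all libraries, and a pair was kept where such starts lay within 1000 nt of each other. This gave 343 pairs made of 684 genes, which was 10.3% of the 6634 genes with a multi-exon model. Only 2700097O09Rik and Atp5f1 belonged to more than 1 pair.

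The models came from PacBio long-read sequencing of 3 libraries with 1 per condition: naive CD4+ T cells, undivided cells at 48 h of activation, and cells at 48 h of activation with 2 divisions behind them. All cells came from spleens and lymph nodes of male wild-type mice, naive cells were isolated with a kit, and activation was through plate-bound anti-CD3 with anti-CD28 antibodies. Divisions were sorted by dilution of the CellTrace Violet dye, so the undivided library holds the cells of the undivided peak, whatever their state of activation. The deposited models carry exon positions and no read counts, so a gene is either held by a library or not, and its abundance is unknown. With 1 library per condition no test was possible, and each difference below is between libraries.

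The naive library had 9047 multi-exon models in 4527 genes, the undivided library 11716 in 5386 genes and the 2-division library 10253 in 4978 genes. Single-exon models made up 14.1% of the naive library, 7.03% of the undivided library and 7.71% of the 2-division library. The activated libraries were run together on a sequencing cell other than that of the naive library, as a label has it, so activation and sequencing cell cannot be told apart. Each activated library held 9 of 10 CD4 T cell markers and the naive library 10. Of 8 B cell markers each activated library held 2 and the naive library 6, and their part in the results was not tested. No marker of CD4 T cells, B cells, myeloid cells, or CD8 T and NK cells was a member of a pair.

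A bidirectional promoter is a stretch of open chromatin, most often within a CpG island, from which RNA polymerase II starts on both strands. Genes that share such a promoter include many with housekeeping roles in DNA repair, mitochondria and RNA processing, and lncRNAs are often made on the upstream strand of a coding gene. The start sites of both genes then lie around the same binding sites for factors such as SP1, NFY and members of the ETS family.

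The 10 coding pairs with the closest 5′ ends show how little sequence separated the divergent starts. Each line below is the plus strand of GRCm38, 5′ to 3′, and the capitals mark the bases between the 5′ ends, with the gene of the minus strand named first and running to the left.
Cwc27/Srek1ip1 (chr13:104817137-104817166): gaccgcgtgtGCTCCGCGGTaggacacccc
Rbm18/Mrrf (chr2:36136611-36136640): cgcctgcGCCGCCGCGCTGGCCCgtgacgt
Banf1/Eif1ad (chr19:5366639-5366668): cggttccTCGACTTCCGCTTCCGggtcgtt
Surf1/Surf2 (chr2:26916350-26916379): ccgagaAATCTGCTTCCTTCCGGgacggcg
Supt6/Sdf2 (chr11:78245706-78245735): agtacGTCACCTCCGGCTCTCTGTCactgg
Mrm2/Nudt1 (chr5:140331893-140331922): gaagtCCCGCCCTCGCTTCCAACGCgaggc
Adprm/Sco1 (chr11:67052626-67052655): ttccGGCAGAAGCGGAAGCTCGAGCggaaa
Tradd/Fbxl8 (chr8:105264609-105264638): tgcGCGGAGACGCAGGGGCGGTGCCCTagc
Arfrp1/Zgpat (chr2:181365363-181365392): gcCCCCGCGCGCAGGTACTTCCGGCAGCtt
Acd/Pard6a (chr8:105701128-105701157): tGAGACTCCGCCCCCCTCGCGGTTCTGCgc

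The same 30 nt held the ETS motif CCGGAAG, on either strand, for Banf1/Eif1ad, Surf1/Surf2 and Arfrp1/Zgpat. They held the SP1 motif GGGCGG, on either strand, for Mrm2/Nudt1, Tradd/Fbxl8 and Acd/Pard6a. Neither of these letters, nor those of the other motifs searched below, were in the 30 nt printed for Cwc27/Srek1ip1, Rbm18/Mrrf, Supt6/Sdf2 and Adprm/Sco1.

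A motif between the 5′ ends is shown for some of the pairs whose partners are described below, with the motif in capitals on the plus strand of GRCm38.
Hspd1/Hspe1, SP1 motif (chr1:55088251-55088280): gcgtcggcgtggCCGCCCcctctcacgctc
Plgrkt/Cd274, SP1 motif (chr19:29367395-29367424): cttccgcggagtGGGCGGggctctgaactc
Cdc45/Ufd1, NFY motif (chr16:18811958-18811987): ttgaatgtgtttCCAATaagtttccaatac
Mrpl18/Tcp1, ETS motif (chr17:12916314-12916343): gcagccccctaCTTCCGGcgttttcagttt
Timm23/Parg, ETS motif (chr14:32201921-32201950): ctgtgtgcggcCCGGAAGtgggaagcgcga
Atm/Npat, TATA box motif (chr9:53536654-53536683): cgcttccggctcTATAAAgcagcaagttgg

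Most paired starts lay much closer together than the window allowed. The median distance was 179 nt (95% interval 162 to 204), with quartiles of 101 and 299 nt and a range of 11 to 992 nt. Of the 343 pairs, 85 (24.8%) were 1 to 100 nt apart, 102 were 101 to 200 nt apart, 71 were 201 to 300 nt apart, 48 were 301 to 500 nt apart and 37 were 501 to 1000 nt apart. The pairs just inside the window were Lnx2/Polr1d at 992 nt, Btf3l4/Txndc12 at 968 nt and Fbh1/Ankrd16 at 954 nt. Those just outside it were Wrap53/Trp53 at 1002 nt, Eif3k/Map4k1 at 1024 nt and Mrpl41/Pnpla7 at 1029 nt.

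**Figure D1:**
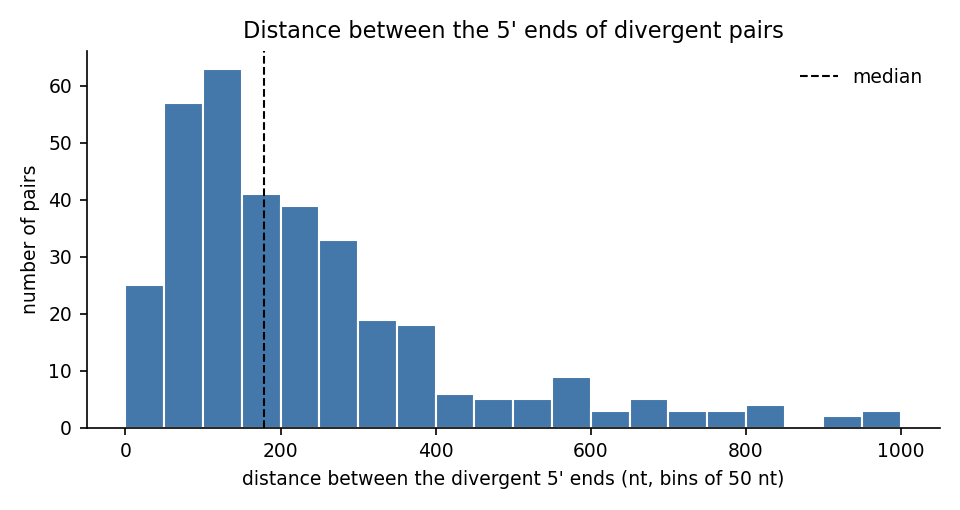
Number of divergent pairs (vertical axis) by the distance between their 5′ ends in nt (horizontal axis, bins of 50 nt), over 343 pairs from the pooled libraries. The dashed line is the median of 179 nt, and 37 pairs lie beyond 500 nt.

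Long reads of this kind are not selected for the cap, so a 5′ end can be that of a shortened cDNA. Among paired genes, 604 of 684 (88.3%, 95% Clopper-Pearson interval 85.7 to 90.6) had their 5′ end within 50 nt of an annotated transcript start, against 84.4% of the 5950 other genes (83.4 to 85.3). The median distance to the nearest annotated start was 11 nt in both. These intervals, like all others given here, cover counting error only. In GENCODE M21 the outermost starts of the same gene pairs were also divergent within 1000 nt for 213 of 343 pairs (62.1%), at a median of 88 nt, and for 129 pairs (37.6%) they passed each other. Hspd1/Hspe1 and Surf1/Surf2 are among those whose outermost annotated starts pass each other.

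Read with the ends of a single library, most distances stayed within the window and a few went far beyond it. Of pairs held whole, 4 of 142 in the naive library, 10 of 249 in the undivided library and 10 of 233 in the 2-division library then lay over 1000 nt apart, up to 150326 nt in the undivided library. Among the 100 pairs held whole in all 3 libraries, the median was 239.5 nt with naive ends, 207 nt with undivided ends and 207.5 nt with 2-division ends. In 68 of these 100 pairs the distance varied by at most 50 nt over the libraries, and in the most variable one by 34100 nt. A pooled end is by construction at or upstream of each library's own end, so the pooled distance is the shortest. For Rbm18/Mrrf the distance was 50 nt with naive, 23 nt with undivided and 19 nt with 2-division ends, while for Cwc27/Srek1ip1 it was 45, 240 and 92 nt. Sharpin/Maf1 lay 181, 191 and 184 nt apart in the same order.

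The 5′ ends themselves moved little between libraries. Of paired genes held in both undivided and naive cells, 343 of 391 (87.7%) had ends within 50 nt of each other, against 2918 of 3339 other genes (87.4%). Of the remaining paired genes, 35 had the undivided end further upstream and 13 further downstream, against 214 and 207 among other genes. After 2 divisions, relative to naive cells, 27 paired genes had the end further upstream and 18 further downstream, against 206 and 183 among other genes. Since the pairs were chosen by their most upstream 5′ ends, these directions are a description.

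Nearly all pairs joined coding genes. In 335 of 343 pairs (97.7%, 95.5 to 99.0) both genes were protein-coding, 6 pairs joined a coding gene with a long noncoding one and 2 a coding gene with a pseudogene. Coding genes made up 98.7% of all genes with a multi-exon model. Of these coding genes 10.3% were paired, and of the 61 long noncoding genes 6 (9.84%) were. Noncoding genes were thus few among all genes with a multi-exon model, and the share of them in a pair was close to that of coding genes.

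The 8 noncoding partners had few models. Gm16350, annotated as antisense, lay 269 nt from the end of Arhgef10, a guanine nucleotide exchange factor. It had 0 models in the naive library, 2 in the undivided and 3 in the 2-division library, while Arhgef10 had 2, 1 and 0. That Arhgef10 end did not lie at an annotated start of the gene. Brip1os had 1 model in each library, 144 nt from Brip1, a DNA helicase of the Fanconi anaemia pathway that had 0, 2 and 0. D430020J02Rik, annotated as a bidirectional promoter lncRNA, and Ncapg2, a condensin II subunit, lay 222 nt apart. Their models numbered 0, 1 and 0 for the lncRNA and 0, 3 and 1 for Ncapg2.

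The other noncoding partners stood beside Dhx15, Flcn, Atp5f1, Oas1c and Mettl4. Beside Dhx15, a splicing helicase, 9230114K14Rik had 1 model after 2 divisions and none in the other libraries. Beside Flcn, the folliculin gene, Gm16062 likewise had 1 model after 2 divisions alone. Gm42890 had 1 model in naive cells alone, 234 nt from Atp5f1, a subunit of the mitochondrial ATP synthase that had 1 model in each library. The polymorphic pseudogene Oas1b had 1, 1 and 2 models, 46 nt from Oas1c of the oligoadenylate synthetase family with 2, 2 and 1. The pseudogene 2700099C18Rik had 1 model in undivided cells alone, while Mettl4, 96 nt away, had 2 after 2 divisions alone.

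More pairs were held whole in the activated libraries than in the naive library. The naive library held both partners of 142 pairs (41.4%, 36.1 to 46.8), the undivided library of 249 (72.6%, 67.5 to 77.2) and the 2-division library of 233 (67.9%, 62.7 to 72.8). In naive cells 159 pairs had 1 partner and 42 had none, in undivided cells 84 had 1 and 10 had none, and after 2 divisions 95 had 1 and 15 had none. Both partners were in all 3 libraries in 100 pairs (29.2%). They were together in both activated libraries and not in the naive one in 75 pairs, and together in naive cells alone in 14. In 22 pairs (6.41%) the partners were never held by the same library, so the pair exists only in the pool. Annotated coding neighbours 1 to 1000 nt apart, both held in any library, were read in the same way for the naive, undivided and 2-division libraries. The shares were 40.4%, 71.5% and 66.0% for divergent, 52.0%, 67.0% and 58.0% for same-strand and 43.7%, 61.2% and 57.3% for convergent neighbours. In each orientation the activated libraries thus held more pairs whole than the naive one. Whether the orientations differ was not tested. The counts over several libraries have no such share beside them.

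**Figure D2:**
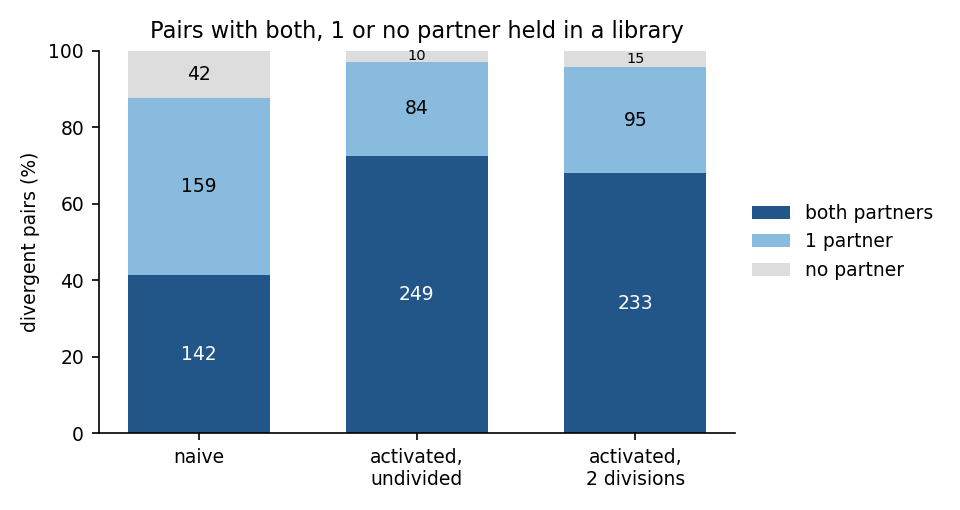
Share of the 343 divergent pairs in percent (vertical axis) with both partners, 1 partner or no partner held by a multi-exon model in each library (horizontal axis), with the number of pairs in each part of a bar. Both partners were held in 142 pairs in the naive library, 249 in the undivided library and 233 in the 2-division library.

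The activated libraries held more genes in general, so the paired genes are set against all 6634 genes. In naive cells 442 of 684 paired genes (64.6%, 60.9 to 68.2) were held, against 68.2% of all genes. In undivided cells 580 (84.8%, 81.9 to 87.4) were held, against 81.2%. After 2 divisions 559 (81.7%, 78.6 to 84.6) were held, against 75.0%. Paired genes thus made up a slightly smaller share than all genes in the naive library and a slightly larger one in both activated libraries.

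The same difference shows in the genes held by some libraries alone. Of paired genes 123 (18.0%, 15.2 to 21.1) were in both activated libraries and not in naive cells, against 15.1% of all genes. In naive cells alone were 24 paired genes (3.51%, 2.26 to 5.18), against 8.76% of all genes. In all 3 libraries were 356 paired genes (52.0%, 48.2 to 55.8), against 49.9% of all genes. A paired gene had a median of 3 models over the libraries, as had other genes.

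The number of models was also compared between the mean of the activated libraries and the naive library. More models in the activated mean were found for 423 paired genes (61.8%, 58.1 to 65.5), against 56.0% of all genes. Fewer were found for 151 paired genes (22.1%, 19.0 to 25.4), against 29.5% of all genes. By pair, both partners had more models in the activated mean in 136 of 343 pairs (39.7%), both had fewer in 18 (5.25%) and the partners went opposite ways in 88 (25.7%). In the other 101 pairs at least 1 partner had the same number. Unlinked genes with the shares above would also give pairs of each kind, and whether these counts differ from that was not tested.

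The partners of a pair were often held by different libraries, as were neighbours in other orientations. Both were held by exactly the same set of libraries in 121 pairs (35.3%, 30.2 to 40.6). The same was asked of adjacent annotated coding genes with a gap of 1 to 1000 nt and both held. The share was 30.6% for divergent ones, 37.0% on the same strand and 26.2% for convergent ones. In 10 pairs both genes were held by both activated libraries and neither by the naive one. In 10 pairs (2.92%) one partner was held in naive cells alone and the other in activated cells alone, and 9 of these 10 pairs rested on 1 model per gene in each library that held it. Of paired genes 3.51% were held in naive cells alone, 18.0% in both activated libraries alone, 9.65% in undivided cells alone and 7.75% after 2 divisions alone. Of all genes it was 8.76%, 15.1%, 9.84% and 6.80%. Whether 10 pairs differ from what unlinked genes with these shares would give was not tested.

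Of those 10 pairs Nup98/Pgap2 had the most models. Nup98, a nuclear pore protein, had 1 model in naive cells and none in either activated library. Pgap2, which takes part in GPI anchor remodelling, had 0 models in the naive library, 4 in the undivided and 3 in the 2-division library, with its 5′ end 359 nt away. Qtrt2 and Trak2, a tRNA-modifying enzyme subunit and a kinesin adaptor, were likewise held by 1 model in naive cells alone. Their partners Ccdc191 and Stradb each had 0, 1 and 1 models. The reverse was seen in Zfp668/Zfp646, where Zfp668 had 0, 1 and 1 models and Zfp646 had 1, 0 and 0. The other 6 pairs of this kind were Exoc5/Ap5m1, Heatr5b/Gpatch11, Klc4/Mrpl2, Mrpl47/Ndufb5, Qpctl/Snrpd2 and Recql4/Lrrc14, each with 1 model in all of each gene.

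The partners that differed most in the change of their number of models were mostly pairs in which one gene had many models. Rpl4, a protein of the large ribosomal subunit, had 5 models in the naive library, 14 in the undivided and 15 in the 2-division library. Zwilch, a kinetochore protein 459 nt away, had 0, 1 and 0. Tcp1, a subunit of the cytosolic chaperonin TRiC, had 1, 8 and 11 models, while Mrpl18 of the mitochondrial ribosome had 1 in each. In both pairs one partner had more models in both activated libraries than in naive cells and the other had at most 1 model more in any library.

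In other pairs the partners went opposite ways. Slc25a11, the mitochondrial oxoglutarate carrier, had 2 models in the naive library, 3 in the undivided and 5 in the 2-division library, while the ubiquitin ligase Rnf167, 248 nt away, had 8, 2 and 1. Arfrp1, a GTPase of the Golgi, had 1, 1 and 4 models, and Zgpat, a zinc finger repressor 27 nt away, had 6, 3 and 2. Ndufb11, a subunit of respiratory complex I, had 1, 0 and 0, and Rbm10, a splicing regulator 231 nt away, had 2, 7 and 4.

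Hnrnpk, an RNA-binding protein, had 13 models in the naive library, 20 in the undivided and 14 in the 2-division library, and made Hnrnpk/Rmi1 the pair with the most models. Rmi1, a partner of the Bloom helicase 41 nt away, had 1, 1 and 0. Safb2 and Safb, which encode related scaffold attachment factors, lay 81 nt apart. Safb2 had 0, 5 and 6 models and Safb had 2, 3 and 3. The Safb2/Safb pair was 374 nt apart in undivided cells and 81 nt apart after 2 divisions.

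**Figure D3:**
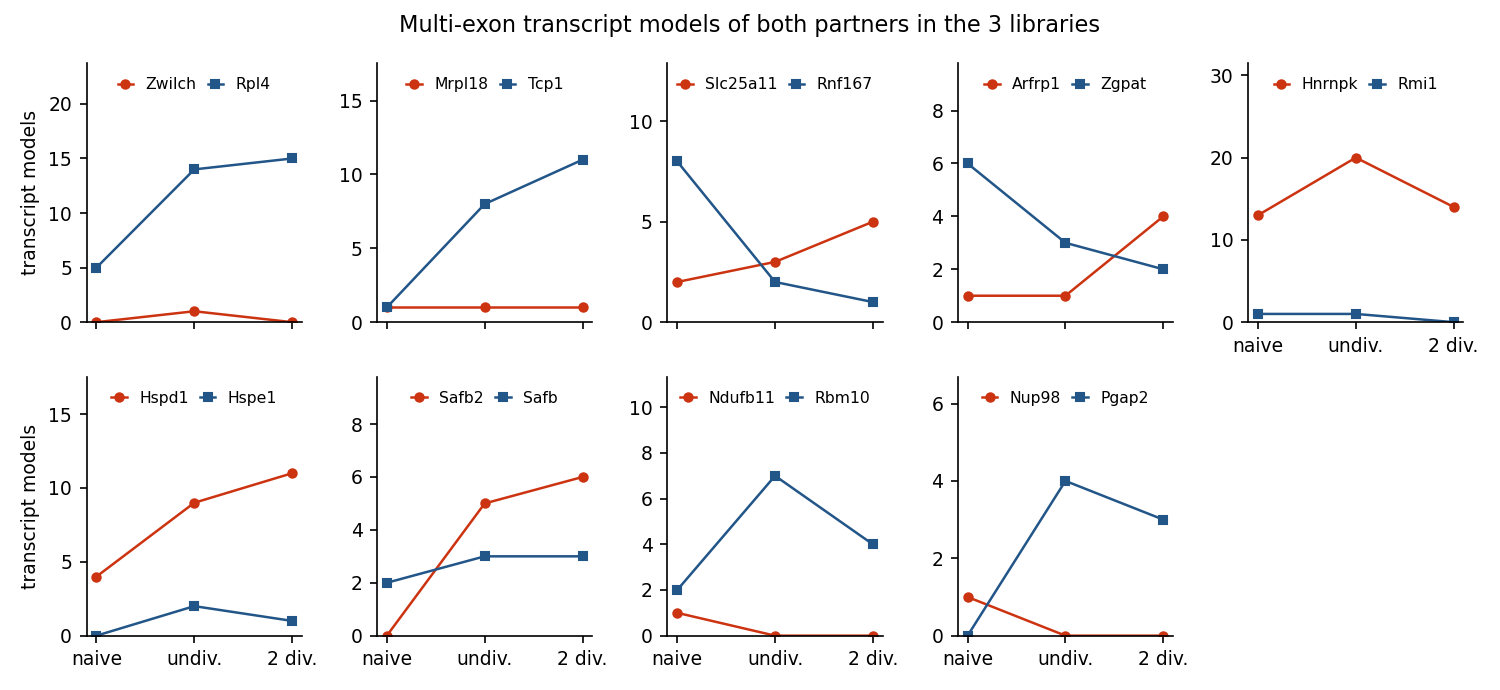
Number of multi-exon transcript models (vertical axis, a separate scale in each panel) in the naive, undivided (undiv.) and 2-division (2 div.) libraries for 9 of the 10 pairs whose partners differed most in their change from naive to the activated mean, with the minus-strand gene as circles and the plus-strand gene as squares. Rpl4 has 5, 14 and 15 models beside 0, 1 and 0 of Zwilch, and in Slc25a11/Rnf167 the lines cross.

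Among other pairs with many models, one partner had several in each library. Ewsr1, an RNA-binding protein, had 10 models in the naive library, 10 in the undivided and 6 in the 2-division library, and its partner Rhbdd3 had 0, 1 and 1. Aup1, a lipid droplet protein, had 8, 5 and 5 beside 3, 2 and 4 of the mitochondrial protease Htra2. Smc4, a core condensin subunit, had 9, 6 and 8 models, while the ciliary transport gene Ift80, 517 nt away, had 1, 0 and 0. Maf1, a repressor of RNA polymerase III, had 7, 5 and 3 models, and Sharpin, a subunit of the linear ubiquitin ligase, had 5, 1 and 1.

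Several divergent pairs that are textbook examples were members. Hspd1 and Hspe1, which encode the mitochondrial chaperonin Hsp60 and its co-chaperonin Hsp10, lay 42 nt apart. Hspd1 had 4 models in the naive library, 9 in the undivided and 11 in the 2-division library, and Hspe1 had 0, 2 and 1. With the ends of each activated library alone they lay 62 nt apart in undivided cells and 78 nt apart after 2 divisions.

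In Cdc45/Ufd1 the starts lay 699 nt apart. Cdc45, part of the replicative helicase, had 0 models in the naive library, 2 in the undivided and 2 in the 2-division library. Ufd1, a cofactor of the p97 segregase, had 2 in each library. Atm, the kinase of the double-strand break response, had 0, 1 and 0 models, 342 nt from Npat, a coactivator of histone gene transcription, with 2 in each library. Surf1, an assembly factor of cytochrome c oxidase, had 1, 1 and 0 models, 18 nt from Surf2 with 2, 1 and 3.

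Other known pairs were not members. The divergent ends of Paics and Ppat, which encode enzymes of purine synthesis, overlapped by 284 nt. The 5′ ends of Tap1 and Psmb9, of antigen processing, were 1333 nt from each other, either with a gap or past each other. For Prkdc/Mcm4, Sars2/Mrps12 and Brca1/Nbr1 only Mcm4, Sars2 and Nbr1 had a multi-exon model, and for Col4a1/Col4a2 neither gene had one.

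Gene groups differed in how many of their held members were paired, set against 10.3% of all genes. Of 54 mitochondrial ribosomal proteins 13 (24.1%, 13.5 to 37.6) were in a pair, among them Mrpl18, Mrpl32, Mrpl46, Mrpl47, Mrps7 and Mrps11. Mrpl46 and Mrps11 were partners of each other. Of 22 genes of respiratory complex I, assembly factors included, 6 (27.3%, 10.7 to 50.2) were paired: Ndufaf5, Ndufaf7, Ndufb5, Ndufb11, Ndufs1 and Ndufs3. Of 16 genes of mitochondrial chaperones and import 5 were paired, namely Hspd1, Hspe1, Timm9, Timm17b and Timm23.

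Genes of the nucleus and the cytosol varied too. Of 55 DNA replication and repair genes 11 (20.0%, 10.4 to 33.0) were paired. Of 23 RNA polymerase subunits 5 (21.7%, 7.46 to 43.7) were paired. Of 48 translation initiation factors 7 (14.6%, 6.07 to 27.8) were, and of 66 cytosolic ribosomal proteins 7 (10.6%, 4.37 to 20.6) were. At the other end, 4 of 133 zinc finger proteins with a Zfp symbol (3.01%, 0.825 to 7.52) were paired. Of 20 interleukins and their receptors 0 were paired (0 to 16.8). Of 41 CD antigens 1 was paired (2.44%, 0.0617 to 12.9), and it was also the only member among 22 T cell activation genes (4.55%, 0.115 to 22.8). None of 13 naive T cell genes was paired (0 to 24.7). Apart from the zinc finger proteins and the DNA replication and repair genes, the intervals in this paragraph include the 10.3% of all genes, so no difference was detectable there. The interval of the DNA replication and repair genes leaves out 10.3% only at its edge. No interval was adjusted for the number of groups looked at. The groups were counted by symbol, and the counts are a description.

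The single T cell activation gene was Cd274, which encodes the checkpoint ligand PD-L1. It had 0 models in the naive library, 1 in the undivided and 0 in the 2-division library, while the plasminogen receptor gene Plgrkt had 3, 2 and 2. The pooled starts of Plgrkt and Cd274 lay 48 nt apart, and with the ends of the undivided library alone they lay 5556 nt apart.

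Of the 11 paired DNA replication and repair genes, 10 had more models in an activated library than in the naive one, as had 445 of all 684 paired genes (65.1%, 61.4 to 68.6) and 58.7% of all genes. Of the 55 genes of the list with a model, the naive library held 31, the undivided library 53 and the 2-division library 52, against 68.2%, 81.2% and 75.0% of all genes in the same order. Orc1 and Orc6, subunits of the origin recognition complex, had 0, 1 and 1 and 0, 2 and 1 models beside Prpf38a with 1 in each library and Vps35 of the retromer with 1, 1 and 2. Fancd2, of the Fanconi anaemia pathway, had 0, 2 and 1 models, 48 nt from Emc3 with 1 in each library. Pms2, a mismatch repair gene, had 0, 1 and 4 models beside Aimp2 with 2, 1 and 1. In each of these 4 pairs the repair or replication gene was missing from the naive library and its partner was held by all 3.

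Rpa1 was the exception among the 11. This gene, whose protein binds single-stranded DNA, had 4 models in the naive library, 2 in the undivided and 3 in the 2-division library, and Smyd4, 112 nt away, had 1, 1 and 3. Fen1, the flap endonuclease, had 1, 3 and 3 models beside Tmem258 with 0, 1 and 0. Xrcc6, which encodes Ku70, had 1, 1 and 3 models beside Desi1 with 0, 2 and 2. Gart, a trifunctional enzyme of purine synthesis, had 2, 4 and 9 models, 912 nt from Son with 1, 1 and 3.

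Genes of mitochondrial import stood beside genes of other roles. Timm23, the channel of the inner membrane translocase, had 1 model in the naive library, 1 in the undivided and 2 in the 2-division library, 66 nt from Parg, the glycohydrolase that removes poly(ADP-ribose), with 0, 1 and 0. Timm17b, another part of that translocase, had 1, 1 and 2 models beside Pqbp1 with 0, 2 and 1. Timm9 had 0, 1 and 0 models and its partner 2700049A03Rik had 1 in each library.

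Because a pair enters the set only if both genes have a model, the question whether divergent neighbours are held together was put to annotated neighbours, which are chosen without the data. With coding and long noncoding genes, adjacent annotated genes with divergent starts 1 to 1000 nt apart formed 1278 pairs, of which at least 1 gene was held in 751. Both were held in 217 of these 751 (28.9%, 25.7 to 32.3). For adjacent genes on the same strand with a gap of 1 to 1000 nt it was 92 of 343 (26.8%, 22.2 to 31.8), and for convergent genes 97 of 353 (27.5%, 22.9 to 32.5). These intervals overlap, so no difference was detectable.

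Among coding genes alone, the share was higher for close divergent neighbours. Both were held in 235 of the 539 pairs with a held gene (43.6%, 39.4 to 47.9), against 100 of 333 (30.0%, 25.2 to 35.3) on the same strand and 103 of 354 (29.1%, 24.4 to 34.1) for convergent genes. For divergent coding genes 1001 to 10000 nt apart it was 112 of 408 (27.5%, 23.2 to 32.1). The genes of close divergent coding neighbours were themselves held more often. Of their genes 56.2% were held in any library, against 40.3% for close neighbours on the same strand, 41.4% for close convergent ones and 32.9% for divergent ones further apart. Genes that are each held more often are also held together more often, and the part of this in the difference was not tested.

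**Figure D4:**
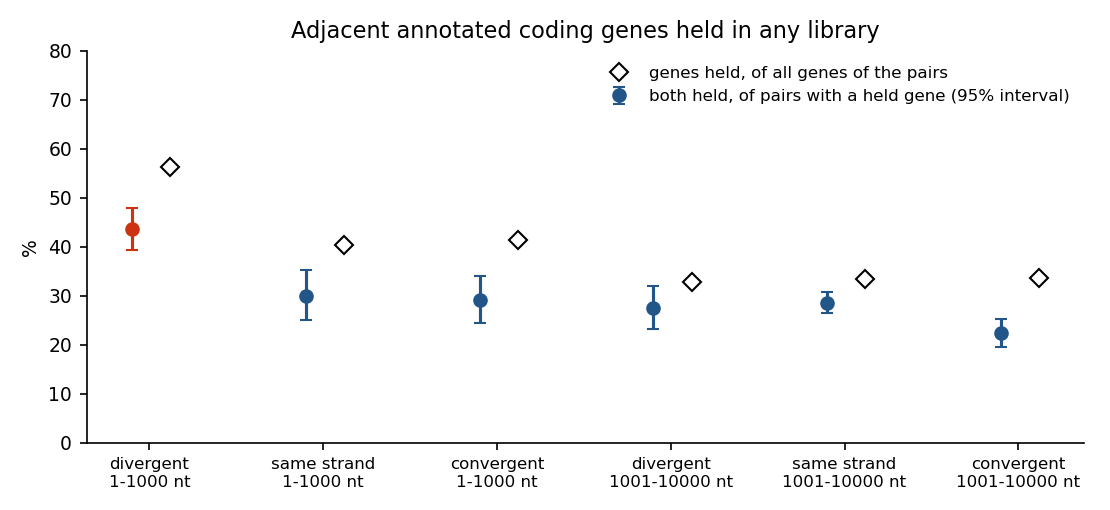
Adjacent annotated coding genes by orientation and by the gap between them (horizontal axis), with circles for the percent of pairs with both genes held among pairs with at least 1 held (bars are 95% Clopper-Pearson intervals, close divergent neighbours in red) and open diamonds for the percent of all genes of these pairs that were held. Close divergent neighbours stand highest on both, at 43.6% and 56.2%.

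Where both coding neighbours were held, no difference by orientation in sharing their libraries was detectable. The same set of libraries held both genes in 30.6% (24.8 to 37.0) of the 235 close divergent pairs, in 37.0% (27.6 to 47.2) of the 100 pairs on the same strand and in 26.2% (18.0 to 35.8) of the 103 convergent pairs. Both partners had more models in the activated mean than in naive cells in 36.6% of those divergent pairs, 29.0% of the same-strand pairs and 33.0% of the convergent pairs. Partners went opposite ways in 26.4%, 31.0% and 26.2% in that order.

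The sequence between and around the paired starts was rich in CpG. In the 300 nt around the middle of each pair the median GC content was 62.3% and the median CpG ratio, the number of CpG observed over that expected from the C and G content, was 0.887. The ratio was above 0.6 in 313 of 343 windows (91.3%, 87.7 to 94.0). In the 300 nt before the 5′ end it was above 0.6 for 93.0% (90.8 to 94.8) of paired genes and for 68.5% (67.3 to 69.6) of other genes, with a median GC content of 62.3% and 58.0%. Restricted to genes with a 5′ end within 50 nt of an annotated start, the shares were 93.4% and 72.1%. The windows before both genes of a pair commonly share bases, so paired genes are not independent here and their interval is likely too narrow.

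Paired genes had more CpG upstream of the 5′ end and slightly fewer downstream of it. From 250 to 1 nt upstream, paired genes had 8.65 CpG per 100 nt and other genes 6.79. From 500 to 251 nt upstream they had 6.87, against 3.35 in other genes, and from 1000 to 751 nt upstream 2.93, against 1.56. In the first 250 nt downstream paired genes had 7.88 CpG per 100 nt, against 8.32 in other genes. With a median distance of 179 nt, the upstream window of a paired gene commonly runs into the first exon of its partner, so it is also a downstream window of another gene.

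**Figure D5:**
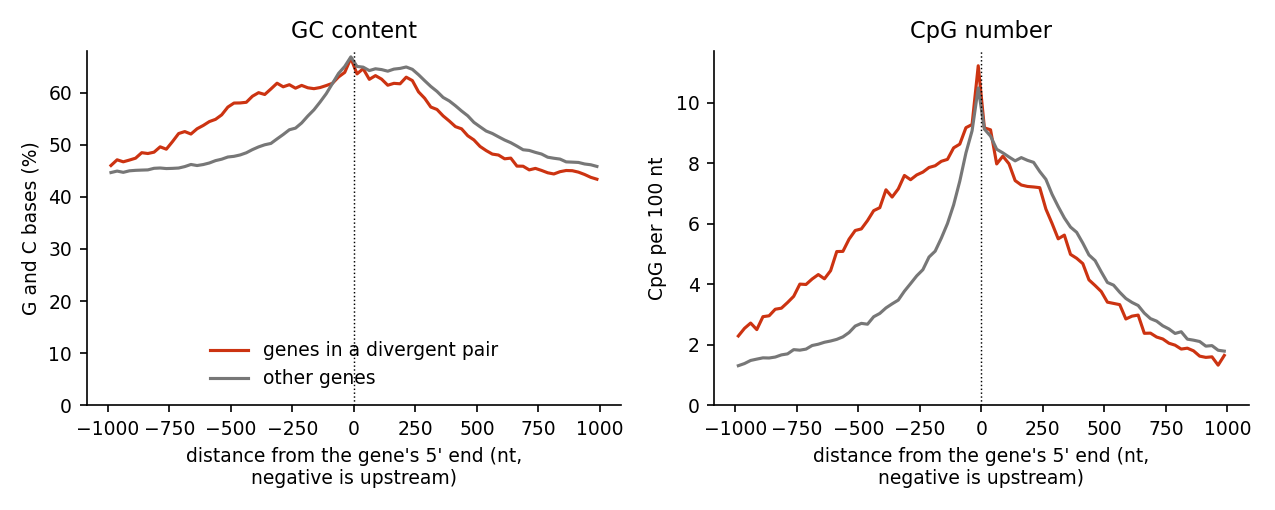
GC content in percent (left) and CpG per 100 nt (right) by distance from the gene's 5′ end in nt, negative upstream, in bins of 25 nt, averaged over 684 genes in a divergent pair (red) and over the other genes (grey). The lines part upstream of the 5′ end, where paired genes have 6.87 CpG per 100 nt from 500 to 251 nt and other genes 3.35.

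The ETS and YY1 motifs were found more often in pairs, and the TATA box less often, than before other genes. CCGGAAG was found on either strand in 125 of 343 pair windows (36.4%, 31.3 to 41.8), in 34.1% (30.5 to 37.8) of the 300 nt windows before paired genes and in 19.3% (18.3 to 20.3) of those before other genes. ATGGCGGC, the core of the YY1 motif, was in 5.83% (3.60 to 8.86) of pair windows, 4.39% of windows before paired genes and 1.63% (1.32 to 1.99) of those before other genes. TATAAA, the TATA box motif, was less common, in 4.08% (2.25 to 6.75) of pair windows, 3.65% before paired genes and 8.54% (7.84 to 9.28) before other genes. These windows are not alike. At a median distance of 179 nt, pair windows and windows before paired genes commonly reach into a first exon. Windows before both genes of a pair also commonly share bases. The same match can then count for each gene, and the interval for paired genes is likely too narrow. Windows before other genes lie upstream of the gene's 5′ end, and the part of this in the differences was not tested.

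The other motifs differed less. GGGCGG, the SP1 motif, was in 69.4% of pair windows, 70.0% before paired genes and 62.1% before other genes. CCAAT, the NFY motif, was in 44.0%, 45.0% and 41.8% of the same windows, and GCGCATGCG, the NRF1 motif, in 3.79%, 4.24% and 3.90%. At least 1 of the 6 motifs was in all but 30 of the pair windows. This count was not made before other genes, where GGGCGG alone was in 62.1% of windows, so it is no trait of the pairs. A match is a description of letters and says nothing of binding, and motifs made mostly of G and C gain matches as GC content rises, the part of which was not tested.

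Many matches lay between the starts. Of the 125 pair windows with CCGGAAG, 88 (70.4%) had a match wholly between the 5′ ends, as in Mrpl18/Tcp1 and Timm23/Parg above. The share was 82.8% for GGGCGG (197 of 238 windows), 90.7% for CCAAT (137 of 151) and 85.7% for TATAAA (12 of 14). For ATGGCGGC it was 2 of 20. The share depends on the distance as well, since for pairs over 300 nt apart the whole window lies between the 5′ ends, and motifs are not to be ranked by it.

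The composition of the window around the middle of a pair changed with the distance between its starts. The median GC content of the 300 nt around the middle was 65.3% for pairs 1 to 100 nt apart, 64.0% at 101 to 200 nt, 60.3% at 201 to 300 nt, 59.7% at 301 to 500 nt and 54.3% at 501 to 1000 nt. The ETS motif was in 49.4% of windows in the closest class and in 3 of 37 (8.11%) in the widest. The share of pairs held whole in undivided cells showed no such order, at 74.1%, 71.6%, 67.6%, 77.1% and 75.7% over the same classes. In the closest class the 300 nt window covers both starts, and in pairs over 300 nt apart it covers neither. Before other genes too, GC content was 59.5% from 250 to 1 nt upstream and 49.9% from 500 to 251 nt. The distance between the starts and the place of the window cannot be told apart here.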

How the data were processed

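Consensus reads were made by the authors with ccs and stripped of primers with lima. Those with a poly(A) tail were clustered (isoseq3), mapped (pbmm2), collapsed and annotated (SQANTI3), and Subread, minimap2, mm10 and GRCm38 stand in the submitters' processing notes. The deposited values are positions of exons on GRCm38 and no counts, so depth is unknown and only numbers of models stand in for it.

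Models were assigned to GENCODE M21 genes by shared splice sites (30591 of 31016 multi-exon models) or exonic overlap (81), and 344 had no gene. Single-exon models were left out. Motif and sequence windows were read from GRCm38. Shares have 95% Clopper-Pearson intervals. With 1 library per condition no test, replicate block or leave-one-out of replicates applies. The pairing code was tested on simulated data. Members and lists were chosen with earlier results of these data known. Named pairs are textbook pairs, the 10 closest coding pairs, the 10 with most models, up to 10 with a noncoding partner, the 10 whose partners differed most, up to 10 in opposite libraries, those with a listed gene, and 3 on each side of the window. Some of these pairs are not reported here. Alternatives changed the window, the 5′ end, the gene types, the pooled libraries, the models needed and the CpG window. Software: matplotlib 3.10.9, numpy 2.4.6, scipy 1.17.1 and Python 3.11.15.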

Additional observations from a re-analysis of the deposited data

Results flagged for a closer look

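Models that belong to no annotated gene were not used for the pairs. Among them, 11 multi-exon models ran away from a gene with a 5′ end within 1000 nt, of 131 such models in this count (8.4%, 4.27 to 14.5). Of these 11, the naive library had 2, the undivided library 5 and the 2-division library 4. They lay beside 4 genes, and 7 of them were 2-exon models beside Vars, the valyl-tRNA synthetase gene on chromosome 17, found in every library 726 to 735 nt from its 5′ end. The others lay beside Gnas, Ccr7 and Ccdc77, at 370 and 378 nt, 813 nt and 844 nt. The model beside Ccdc77 starts downstream of the 5′ end of Kdm5a on the same strand as Kdm5a. A model assigned to no gene thus need not lie outside genes. Of the 131 models 1 lay within the same distance on the same strand as a gene. A model that runs into a gene on its own strand is assigned to that gene, so this count is kept low by construction. Among single-exon models of no gene 4 of 1436 ran away from a gene in the same way, beside Clta, Sptssa, Srgn and Vars.

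Counting single-exon models of annotated genes too gained 28 pairs, of which 27 had a partner with single-exon models alone and 13 a noncoding partner, such as Map2k3os/Map2k3 at 159 nt.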

How the results depend on the processing

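With 1 library per condition, 1 model can decide whether a gene is held, depth is unknown, and 5′ ends are not selected for the cap. A number of pairs was taken to differ where it changed by over 1.5 times, and a median or share where it left the interval of the reported value. Requiring another model within 50 nt of the 5′ end left 219 pairs (213 of them shared), 99.5% of them coding on both sides, with both partners in 58.9% in naive cells, 89.5% in undivided cells, 87.2% after 2 divisions and 46.1% in all 3 libraries; by construction each gene then has at least 2 models. Requiring 2 models in a library gave 7.87%, 15.7%, 15.2% and 2.33% in the same order. The median distance was 230 nt with median 5′ ends and 92.5 nt with annotated ones, where 213 of 250 pairs were shared. With single-exon models 94.3% of pairs were coding on both sides. The CpG ratio was above 0.6 in 94.2% of 600 nt windows and above 0.75 in 75.8% of 300 nt windows. Within 200 nt of an annotated start were 96.6% of paired genes. For coding genes alone 43.6% of close divergent neighbours were held together, against 28.9% with long noncoding genes. Leaving out the naive, undivided or 2-division library left 320, 280 or 286 pairs, and a window of 500 or 2000 nt gave 306 or 365.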

Other observations

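Beside the pairs above, 19 pairs of genes had divergent 5′ ends that passed each other, by a median of 254 nt and by 15 to 895 nt. Dgka, which encodes a diacylglycerol kinase, and Pym1 overlapped by 488 nt. Dgka had 34 models in the naive library, 5 in the undivided and 4 in the 2-division library, and Pym1 had 2, 2 and 1. Nfkb2, a subunit of NF-kappaB, overlapped by 895 nt with AC114539.1, annotated as a bidirectional promoter lncRNA. Nfkb2 had 3, 12 and 10 models and the lncRNA 1, 0 and 0. Dtx3l and Parp9, which encode partners in one ubiquitin ligase complex, overlapped by 516 nt and had 2, 1 and 2 and 2, 7 and 6 models. Tor1aip1 and Tor1aip2, related activators of torsins, overlapped by 423 nt and had 5, 2 and 3 and 1, 8 and 7 models. Paics and Ppat had 1, 5 and 5 and 2, 4 and 3.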
